A study of Mus musculus with 12 samples.

Results

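Immediate early genes are the transcripts that a cell switches on within minutes of receptor stimulation or stress, and 37 of them were followed here in group 3 innate lymphoid cells (ILC3s) sorted from the mouse small intestine. The set was a list of gene symbols (the AP-1, EGR and NR4A transcription factors and the feedback regulators induced beside them) and was not defined by a threshold on expression, and all 37 symbols were found among the 23284 genes of the FPKM table. FPKM is a fragment count scaled by the length of the transcript and the depth of the library. The 12 RNA-seq libraries came from HR-1 hairless mice at 18 weeks of age, in 4 groups of 3 libraries. PA milk mice had suckled mothers whose chow was enriched in palmitic acid, a long-chain saturated fatty acid, from birth to weaning, and ND mice had suckled mothers on the normal chow. From both, ILC3s were taken from the intraepithelial layer (IEL) and from the lamina propria (LP), giving the groups ND IEL, PA IEL, ND LP and PA LP. The sort gate was lineage negative, Thy1.2+, CD25+ and Nrp1+, with CD4+ in the study's methods and CD45+ in a legend. IEL cells were released by shaking in EDTA and DTT, and LP cells by a later digestion of the same tissue in collagenase and DNase, so that gut layer and preparation cannot be told apart. The 12 libraries include no undigested reference, and the labels do not say whether a library is 1 mouse or a pool, so p-values measure only the spread between these libraries.

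The proteins of these genes act in a short circuit. Receptor signals run through MAP kinases to SRF and CREB, and through the IκB kinases to NF-κB, and these factors are already present in the resting cell, so that transcription of immediate early genes needs no new protein synthesis. The products include transcription factors that carry the response forward (FOS, JUN, EGR, NR4A) and brakes that end it (DUSP phosphatases on MAP kinases, IκBα and A20 on NF-κB, tristetraprolin on cytokine mRNA). The same genes are known to be induced while a tissue is being dissociated.

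Recovered depth was 8.79 to 14.56 M reads a library. PA IEL replicate 2 had 4390 genes at 1 FPKM or more and PA LP replicate 2 had 5637, whereas the other 10 libraries had 7863 to 11378. These 2 had 14.56 and 9.81 M reads, and they carry the same replicate number of the same milk group in their labels. In these 2 libraries 18 and 26 of the 37 genes reached 1 FPKM, against 30 to 36 in the others, and the results are therefore given over 12 libraries and over the 10 without them. Without them the PA IEL and PA LP groups hold 2 libraries each. Of the 19 listed markers of the sorted cells, Thy1, a gene of the sort gate, had the lowest mean, 2.74 FPKM, and did not exceed 14.2. The 19 together summed to 333 to 2758 FPKM in IEL libraries and 218 to 5738 in LP libraries. Of the highest sum, in ND LP replicate 2, Il22 alone held 4339 FPKM. Of the 19, 2 to 19 reached 1 FPKM in IEL libraries and 5 to 19 in LP libraries, with 5 to 16 in PA LP. In bulk RNA a lower level can come from fewer cells of a type or from less RNA per cell, and these cannot be told apart.

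The promoters of 5 genes are shown because these genes were abundant, passed the layer comparison over 10 libraries and carry a match to a searched motif. Only the searched letters are marked, so a variant of a site, or a site further upstream, would not appear. Each line is the 250 bases before the RefSeq start site (assembly GRCm38.p6, 5′ to 3′ on the gene's strand), with the motif in capitals. Fos lies at chr12:85473640-85473889 on the plus strand, with a match to the NF-κB site and a TATA box (TATAAA). Dusp1 lies at chr17:26508473-26508722 on the minus strand, with a full CRE (TGACGTCA), the site bound by CREB. Zfp36 lies at chr7:28379229-28379478 on the minus strand, with an EGR site (GCGNGGGCG) and a CArG box, the site bound by SRF. Nfkbia at chr12:55492648-55492897, minus strand, and Ier3 at chr17:35821463-35821712, plus strand, each carry a match to the NF-κB site.
Fos: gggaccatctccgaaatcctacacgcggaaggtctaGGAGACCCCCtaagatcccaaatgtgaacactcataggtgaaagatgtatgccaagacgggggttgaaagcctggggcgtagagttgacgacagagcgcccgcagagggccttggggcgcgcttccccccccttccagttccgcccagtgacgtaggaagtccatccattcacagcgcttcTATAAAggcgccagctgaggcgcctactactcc
Dusp1: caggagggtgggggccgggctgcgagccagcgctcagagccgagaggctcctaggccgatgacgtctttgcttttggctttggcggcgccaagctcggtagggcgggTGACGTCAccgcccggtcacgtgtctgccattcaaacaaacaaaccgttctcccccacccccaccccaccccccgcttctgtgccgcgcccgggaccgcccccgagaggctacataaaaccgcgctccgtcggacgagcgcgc
Zfp36: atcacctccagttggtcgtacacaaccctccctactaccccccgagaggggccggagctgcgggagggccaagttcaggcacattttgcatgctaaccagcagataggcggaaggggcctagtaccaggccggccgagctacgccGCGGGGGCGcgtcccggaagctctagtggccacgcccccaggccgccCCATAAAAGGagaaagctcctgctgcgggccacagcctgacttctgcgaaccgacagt
Nfkbia: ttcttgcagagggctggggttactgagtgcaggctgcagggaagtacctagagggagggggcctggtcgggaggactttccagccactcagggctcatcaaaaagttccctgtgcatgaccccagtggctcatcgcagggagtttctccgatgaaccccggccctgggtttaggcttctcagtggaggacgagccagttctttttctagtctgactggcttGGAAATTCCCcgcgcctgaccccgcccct
Ier3: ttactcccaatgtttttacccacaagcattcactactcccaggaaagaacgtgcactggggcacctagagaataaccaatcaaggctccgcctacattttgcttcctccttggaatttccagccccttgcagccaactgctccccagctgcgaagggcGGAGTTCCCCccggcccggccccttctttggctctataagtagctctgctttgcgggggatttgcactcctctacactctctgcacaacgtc

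Gene spans given in parentheses after a gene name are those of the GENCODE annotation on GRCm38 (mm10). Promoter windows from 250 bases before to 50 bases after the start site were found in RefSeq for 30 of the 37 genes, in 40 windows, and motifs were searched on both strands in the windows of 27025 genes, counting a gene once if any of its windows held the motif. The EGR site was held by 11 of the 30 members (36.7%) and by 6.27% of all genes, and its holders were Fosb, Fosl2, Nr4a1, Nr4a2, Klf4, Maff, Dusp2, Zfp36, Btg2, Gadd45b and Rgs2. The NF-κB site was held by 8 members (26.7%, against 5.14% of all genes), which were Fos, Fosb, Fosl2, Nr4a1, Maff, Ier3, Nfkbia and Tnfaip3. The CArG box was held by 3 (10% against 1.81%), Egr2, Dusp5 and Zfp36, and the CRE by 3 (10% against 2.03%), Maff, Dusp1 and Btg2. The TATA box was held by 8 (26.7% against 15.7%) and the AP-1 site (TGACTCA) by 2 (6.67% against 5.95%). A match is a description of the letters, and several members have more than 1 window. No RefSeq window was matched for Fosl1, Egr1, Egr3, Ier2, Nfkbiz, Gem and Rgs1.

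The levels of the immediate early genes were summed in each library. The part of the sorted cells in this RNA was not tested. These genes were not ranked against all other genes. Their summed level was 8361 to 11303 FPKM in ND IEL, 3965 to 17524 in PA IEL, 19106 to 29591 in ND LP and 2658 to 41070 in PA LP, which is 0.347 to 5.428% of all FPKM in a library. With the 2 libraries of few genes aside, the sum was 8361 to 17524 in the 5 IEL libraries and 19106 to 41070 in the 5 LP libraries, with no overlap. Zfp36, Fos, Junb and Nfkbia alone held 48.5% of the sum over all libraries, and the 10 most abundant genes held 77.4%. At the other end, Egr3 never exceeded 1.67 FPKM and failed the filter of 1 FPKM in 3 libraries, so that 36 genes were tested. Fosl1 was at 0 in 6 libraries and Nr4a3 in 5. PA LP replicate 2 was the lowest of the 12 libraries for 19 of the 36 genes and PA IEL replicate 2 for 17, ties included, while PA LP replicate 3 was the highest for 11 and PA LP replicate 1 for 9.

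**Figure D1:**
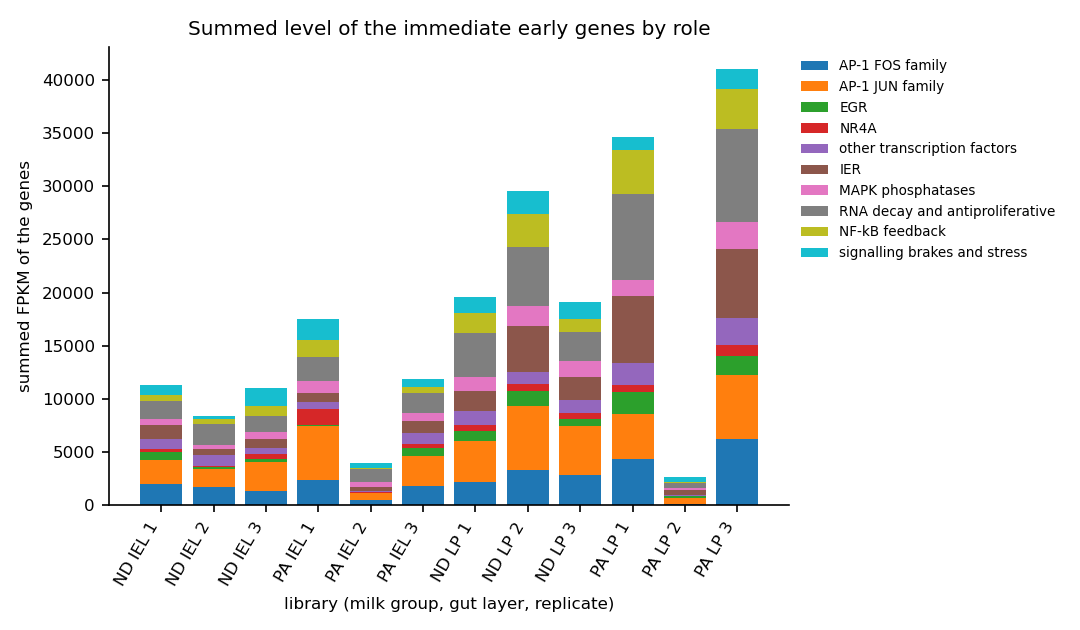
Summed FPKM (bars from 0) of the 37 immediate early genes in each library, coloured by role. The 3 ND LP libraries and PA LP replicates 1 and 3 reach 19106 to 41070 FPKM, the IEL libraries stay at or under 17524, and PA LP replicate 2 has the lowest sum, 2658.

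**Figure D2:**
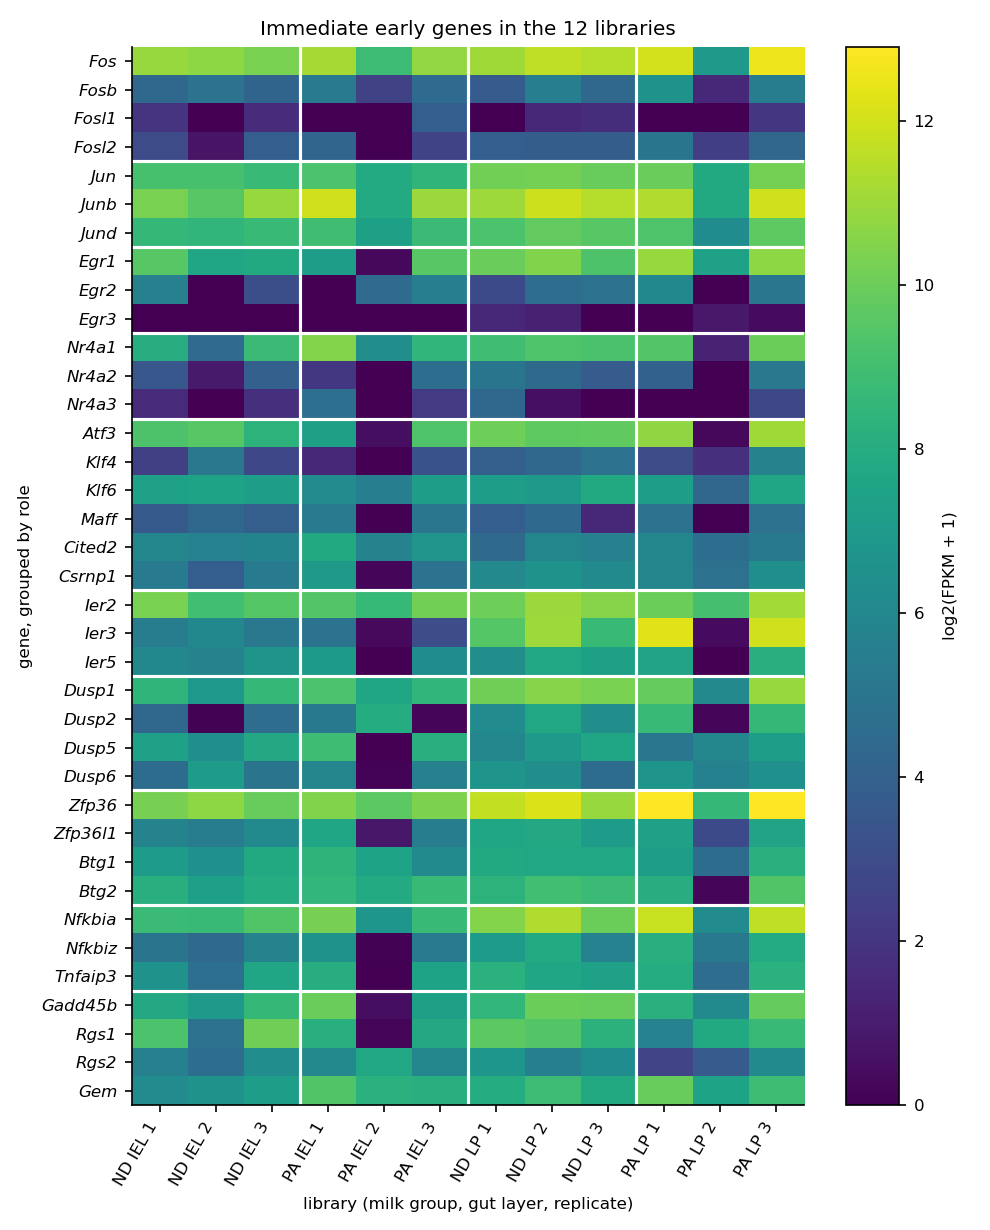
Level of each gene, as log2(FPKM + 1), in the 12 libraries, with rows grouped by role and columns by group. Low columns mark PA IEL replicate 2 and PA LP replicate 2, where 18 and 26 of the 37 genes reached 1 FPKM.

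Most immediate early genes had a higher mean in LP than in IEL cells, and in the fit of FPKM members passed the test only once PA LP replicate 2 was left out. Over 12 libraries, averaged over the milk groups, 29 of 36 genes had a higher mean in LP, with a median log2 fold change of 0.90 against 0.08 for all 12502 genes tested. None of the 36 passed limma's adjusted p of 0.05, a threshold that 0.88% of all genes passed. At an unadjusted p under 0.05 there were 7 members, Jun, Egr1, Ier2, Ier3, Dusp1, Zfp36 and Nfkbiz, all higher in LP, where 7.34% of all genes were. Over the 10 libraries 11 members passed the adjusted threshold, all higher in LP, where 3.66% of all genes did so in that direction: Fos, Jun, Jund, Egr1, Atf3, Ier3, Dusp1, Dusp2, Zfp36, Nfkbia and Nfkbiz. The median log2 fold change was then 1.04 against 0.02 for all genes. Leaving out PA LP replicate 2 alone gave 6 members (Fos, Jun, Ier3, Dusp1, Zfp36 and Nfkbia, all higher in LP), with 4.17% of all genes passing in either direction. Weighted fits of the recovered reads over all 12 libraries (limma-voom) passed Jun and Dusp1, where 1.86% of all genes passed as higher.

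The median of the members had the same direction in both milk groups. In ND mice, where no library was left out, the 3 LP libraries all lay above the 3 IEL libraries for 15 genes, while 9.34% of all genes did so, and no member lay wholly below, as 9.95% of all genes did. These were Fos, Jun, Junb, Jund, Nr4a1, Atf3, Csrnp1, Ier3, Dusp1, Dusp2, Zfp36, Zfp36l1, Btg2, Nfkbia and Gem, and 3 against 3 libraries cannot give an exact permutation p below 0.1. The median log2 fold change of LP over IEL in ND was 1.07 against 0.09 for all genes, and none of the 36 members passed the adjusted threshold, as 0.032% of all genes did, with 2 at an unadjusted p under 0.05 (Dusp1 and Gem, both higher in LP), near the share of all genes at that p (3.64% higher, 6.63% either). In PA milk mice it was 0.71 against 0.03 (-0.43 without PA IEL replicate 2 and 1.98 without PA LP replicate 2), again with no member past the adjusted threshold and 0.144% of all genes past it, and 4 at an unadjusted p under 0.05 (Egr1, Ier3 and Nfkbiz higher, Rgs2 lower), near the share of all genes at that p (5.7% higher, 4.92% lower, 10.6% either). No member separated by layer in PA milk, as 4.51% of all genes did upward and 4.06% downward. Over the 10 libraries, Ier3 and Dusp1 passed in ND, where 0.744% of all genes passed as higher, and Ier3, Zfp36 and Atf3 passed in PA milk, where 1.7% did. Over the same 10 libraries, LP lay above IEL without overlap for 7 genes (Jun, Jund, Atf3, Ier3, Dusp1, Dusp2 and Zfp36), which held for 3.46% of all genes, and below it for none of the 36, which held for 2.96%. The exact permutation test was run only for members without overlap. Lack of overlap fixes its p at the smallest that 5 against 5 can give, 0.00794, so the p adds nothing to the count.

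**Figure D3:**
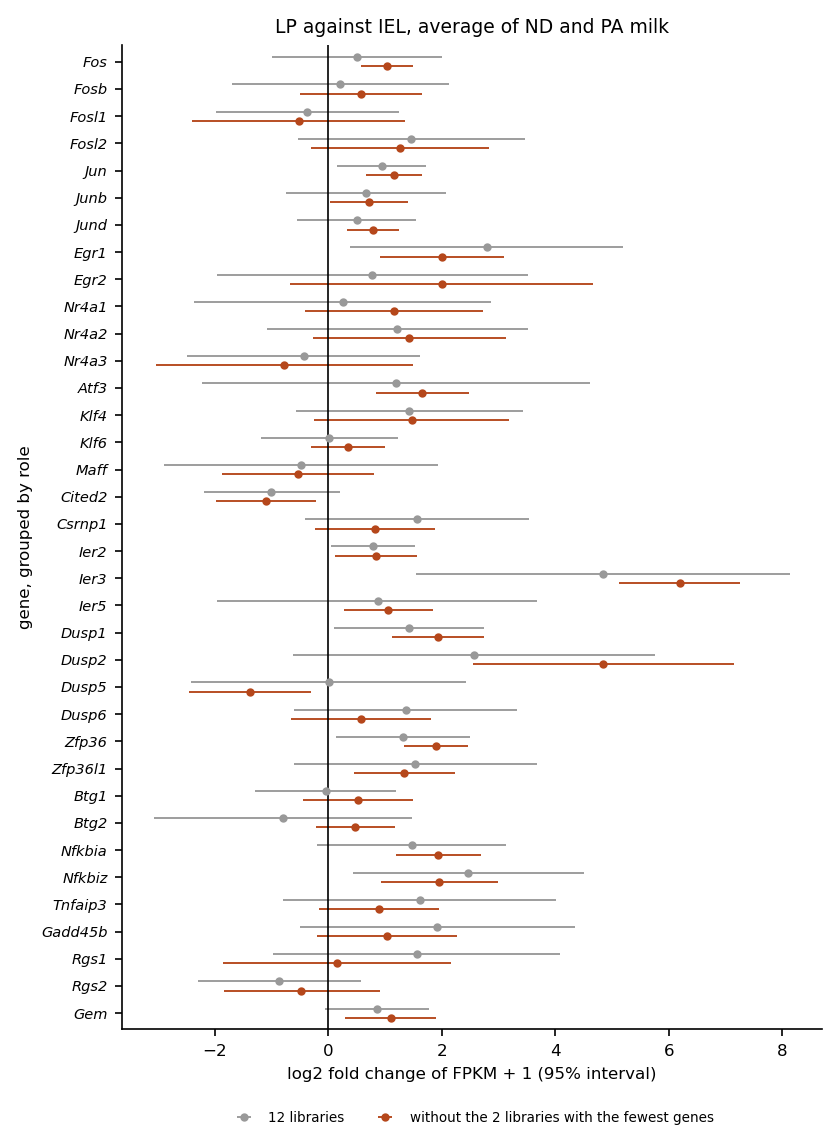
Log2 fold change of FPKM + 1 of LP over IEL, averaged over ND and PA milk, for the 36 genes tested (point, fitted value; bar, 95% interval), from all 12 libraries in grey and without the 2 libraries with the fewest genes in red. Most points lie above 0, with Ier3 farthest out at 4.84 and 6.19.

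The AP-1 factors bind DNA as FOS–JUN pairs, and Fos is their best known inducible partner. Fos, in replicates 1, 2 and 3, was at 1949, 1700.1 and 1258 FPKM in ND IEL, 2318, 456 and 1789 in PA IEL, 2157, 3279 and 2838 in ND LP and 4217, 125 and 6145 in PA LP. All ND LP libraries lay above all ND IEL libraries, PA LP replicates 1 and 3 were the 2 highest of the 12, and PA LP replicate 2 was the lowest. The log2 fold change of LP over IEL was 0.51 ± 0.70 (SE) with an adjusted p of 0.845 over the 12 libraries, and 1.04 ± 0.21 with an adjusted p of 0.0145 over the 10, and it was -0.00 without PA LP replicate 3.

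Jun (chr4:95049034-95052222, minus strand) encodes the JUN subunit that most often pairs with FOS. Its level was 567, 573 and 415 FPKM in ND IEL, 605, 236 and 348 in PA IEL, 1121, 1169.9 and 969.5 in ND LP and 983, 224 and 1193 in PA LP. LP exceeded IEL in every library but PA LP replicate 2, which was the lowest. For Jun the log2 fold change of LP over IEL was 0.94 ± 0.37 (SE) with an adjusted p of 0.276 over the 12 libraries, and 1.16 ± 0.23 with an adjusted p of 0.0112 over the 10. Junb (chr8:84974484-84978718, minus strand), a JUN paralogue that in lymphocytes pairs with BATF as well, was at 1269, 752 and 1923 FPKM in ND IEL, 3953, 239.7 and 1977 in PA IEL, 2078, 3914 and 2821 in ND LP and 2611, 229.6 and 4043 in PA LP. PA IEL replicate 1 reached the level of the LP libraries, so that the layers overlapped in PA milk mice and not in ND mice. The Junb fold change was 0.67 ± 0.67 (SE) with an adjusted p of 0.765 over the 12 libraries, and 0.72 ± 0.31 with an adjusted p of 0.231 over the 10.

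Of the other AP-1 members, Jund, which is held at a steady level in many resting cells, had a log2 fold change of LP over IEL of 0.50 ± 0.50 (SE) with an adjusted p of 0.764 over the 12 libraries, and 0.79 ± 0.21 with an adjusted p of 0.0472 over the 10, and is named after its values were seen. Fosb ranged from 1.74 to 97.5 FPKM and Fosl2 from 0 to 31.1, both highest in PA LP replicate 1, and Fosl1 stayed at or under 13.7.

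EGR1 is a zinc finger factor downstream of MAP kinases and SRF. Egr1 stood at 736, 189 and 231 FPKM in ND IEL, 144, 0.2 and 753 in PA IEL, 980.1, 1383 and 628 in ND LP and 1941, 165 and 1682 in PA LP. It was at 0.2 FPKM in PA IEL replicate 2, and 2 IEL libraries, ND replicate 1 and PA replicate 3, exceeded ND LP replicate 3. The log2 fold change of LP over IEL was 2.79 ± 1.13 (SE) with an adjusted p of 0.288 over the 12 libraries, and 2.01 ± 0.49 with an adjusted p of 0.034 over the 10. Egr2, which restrains T cell activation, was at 0 in 3 libraries and at most 63.7 FPKM.

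NR4A orphan receptors are induced by antigen receptor signals in lymphocytes. Nr4a1 was at 259, 21.6 and 447 FPKM in ND IEL, 1432, 82.1 and 353 in PA IEL, 496, 644 and 593 in ND LP and 704, 1.33 and 1036 in PA LP. ND LP lay above ND IEL, but the highest of the 12 was a PA IEL library, replicate 1, and PA LP replicate 2 was at 1.33 FPKM. Its log2 fold change of LP over IEL was 0.26 ± 1.23 (SE) with an adjusted p of 0.965 over the 12 libraries, and 1.16 ± 0.71 with an adjusted p of 0.417 over the 10. Nr4a2 did not exceed 35.3 FPKM and Nr4a3 did not exceed 24.9.

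Among the other transcription factors, Atf3 (chr1:191170296-191218039, minus strand), a stress-induced repressor, was at 639, 752 and 322 FPKM in ND IEL, 163, 0.41 and 646 in PA IEL, 1063, 822 and 859 in ND LP and 1717, 0.21 and 2128 in PA LP. The libraries of few genes were at 0.41 and 0.21 FPKM, and the other 5 LP libraries lay above the other 5 IEL libraries. The fold change was 1.19 ± 1.61 (SE) with an adjusted p of 0.841 over the 12 libraries, and 1.66 ± 0.37 with an adjusted p of 0.0234 over the 10, and it was -0.11 without PA IEL replicate 2. Klf6 (chr13:5861482-5870394, plus strand), a zinc finger factor of wound and stress responses, was at 166, 177 and 149.8 FPKM in ND IEL, 74.9, 44.3 and 142 in PA IEL, 149.7, 125 and 230.2 in ND LP and 143, 18.1 and 199.96 in PA LP. The layers overlapped, and the fold change of LP over IEL was 0.02 ± 0.57 (SE) with an adjusted p of 0.993 over the 12 libraries, and 0.35 ± 0.30 with an adjusted p of 0.601 over the 10. Klf4, Maff, Cited2 and Csrnp1 had mean levels of 15.1 to 66.5 FPKM, and Cited2, a CBP/p300-binding co-regulator, was the one with a lower mean in LP at an unadjusted p under 0.05 over the 10 libraries (-1.0 ± 0.56 (SE) with an adjusted p of 0.487 over the 12 libraries, and -1.10 ± 0.40 with an adjusted p of 0.145 over the 10), named after its values were seen.

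Ier3 (chr17:35821684-35822923, plus strand), an inducible survival gene under NF-κB control, differed most between the layers. It was at 41.5, 63.4 and 34.6 FPKM in ND IEL, 29, 0.25 and 7.34 in PA IEL, 720.3, 2086 and 406 in ND LP and 5166, 0.31 and 4029 in PA LP. The 3 ND LP libraries and PA LP replicates 1 and 3 lay between 406 and 5166 FPKM, no IEL library exceeded 63.4, and PA LP replicate 2 was at 0.31. The log2 fold change of LP over IEL was 4.84 ± 1.55 (SE) with an adjusted p of 0.159 over the 12 libraries, and 6.19 ± 0.48 with an adjusted p of 4.3e-05 over the 10. Within ND mice it was 4.21 ± 2.2 (SE), adjusted p = 0.829 over 12 libraries, and an SE of 0.61 with an adjusted p of 0.00743 over the 10, where the ND values themselves are unchanged and the shared spread is smaller.

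Ier2, a nuclear protein induced with Fos, was at 1284, 514 and 729 FPKM in ND IEL, 686, 398 and 1133 in PA IEL, 1051, 2010.3 and 1528 in ND LP and 1029, 549 and 2174 in PA LP. The layers overlapped, since PA IEL replicate 3 and ND IEL replicate 1 lay above the lowest LP libraries of both milk groups. Its fold change was 0.79 ± 0.35 (SE) with an adjusted p of 0.341 over the 12 libraries, and 0.84 ± 0.33 with an adjusted p of 0.177 over the 10. Ier5, a co-activator of HSF1, was at 0 in both libraries of few genes and at 54.3 to 272 FPKM in the others.

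**Figure D4:**
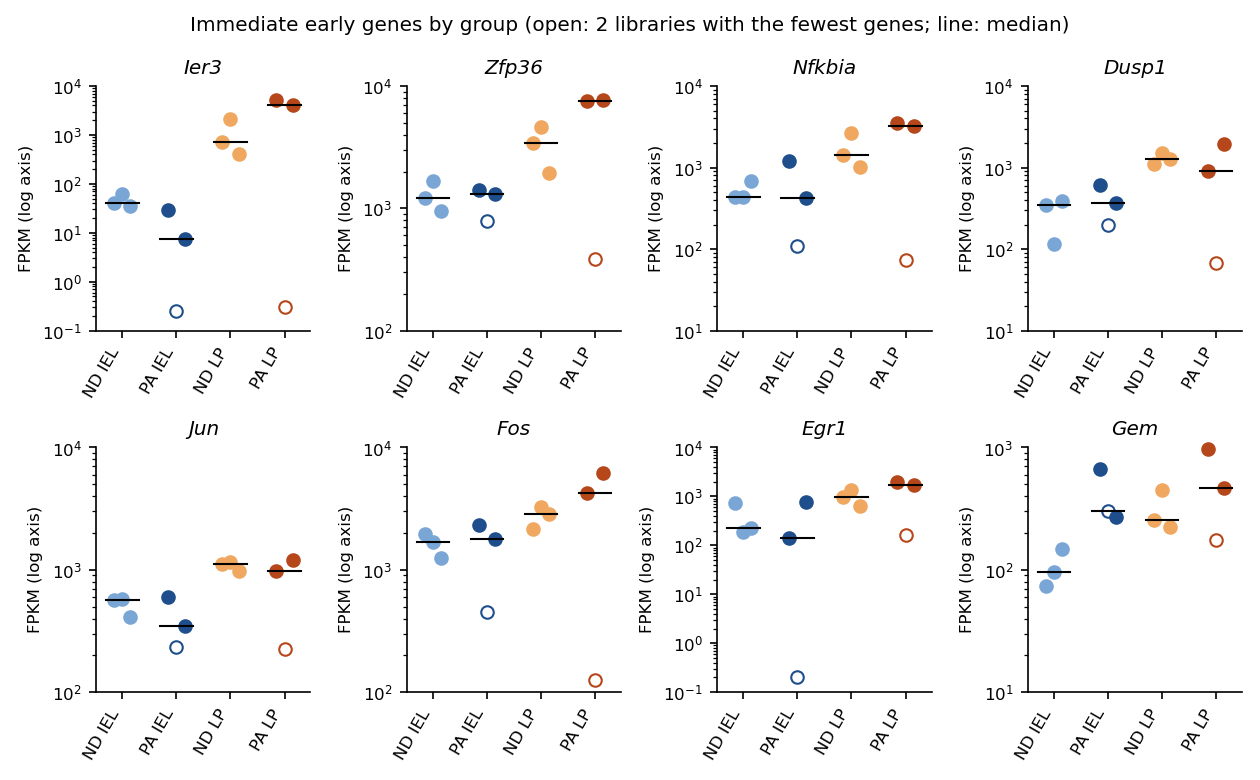
FPKM (log axis) of 8 immediate early genes in each library of the 4 groups, with the group median as a line and the 2 libraries with the fewest genes as open circles. For Ier3, Zfp36, Dusp1 and Jun the filled LP points lie above all IEL points, whereas for Gem the 3 PA IEL points lie above the 3 ND IEL points.

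Dual-specificity phosphatases dephosphorylate MAP kinases and so end the signal that induces them. Dusp1 (chr17:26505590-26562128, minus strand) was at 343, 116 and 385 FPKM in ND IEL, 611, 195 and 363 in PA IEL, 1108, 1488 and 1271 in ND LP and 912, 66.9 and 1947 in PA LP. LP lay above IEL in every library but PA LP replicate 2, the lowest of the 12. Its fold change of LP over IEL was 1.42 ± 0.63 (SE) with an adjusted p of 0.337 over the 12 libraries, and 1.93 ± 0.37 with an adjusted p of 0.0103 over the 10. In ND mice alone the log2 fold change was 2.36 ± 0.88 (SE), adjusted p = 0.545 over 12 libraries and had an SE of 0.46 with an adjusted p of 0.0392 over the 10.

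Dusp2, the nuclear phosphatase of activated leukocytes, was at 18.9, 0.06 and 23.4 FPKM in ND IEL, 35.8, 256 and 0.17 in PA IEL, 74, 202 and 82.2 in ND LP and 433, 0.19 and 379 in PA LP, and is given after its values were seen. PA IEL replicate 2, a library of few genes, was within the LP range, and the other IEL libraries lay under all LP libraries but PA LP replicate 2. For Dusp2 the log2 fold change of LP over IEL was 2.57 ± 1.5 (SE) with an adjusted p of 0.51 over the 12 libraries, and 4.85 ± 1.05 with an adjusted p of 0.019 over the 10. Dusp5 passed in neither, at 0.01 ± 1.14 (SE) with an adjusted p of 0.998 over the 12 libraries, and -1.38 ± 0.49 with an adjusted p of 0.135 over the 10.

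Zfp36 (chr7:28376784-28380253, minus strand) encodes tristetraprolin, which binds AU-rich elements and promotes decay of cytokine mRNA, and it was the most abundant of the 37 genes. It was at 1208, 1687 and 949.6 FPKM in ND IEL, 1404, 792 and 1317 in PA IEL, 3421, 4611 and 1946 in ND LP and 7545, 388 and 7639.9 in PA LP. Every LP library but PA LP replicate 2 lay above every IEL library, and PA LP replicate 2 was again the lowest of the 12. The log2 fold change of LP over IEL was 1.32 ± 0.55 (SE) with an adjusted p of 0.309 over the 12 libraries, and 1.90 ± 0.26 with an adjusted p of 0.00139 over the 10. Its paralogue Zfp36l1 and the antiproliferative genes Btg1 and Btg2 had mean levels of 109 to 327 FPKM and did not pass over 12 or over 10 libraries.

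Nfkbia encodes IκBα, which holds NF-κB in the cytoplasm and is resynthesised under its control. Nfkbia was at 437, 429.7 and 678 FPKM in ND IEL, 1199.8, 110.3 and 429 in PA IEL, 1429, 2678 and 1022 in ND LP and 3550.2, 72.8 and 3219 in PA LP. PA IEL replicate 1 exceeded ND LP replicate 3, and both libraries of few genes were the lowest. Its log2 fold change of LP over IEL was 1.47 ± 0.79 (SE) with an adjusted p of 0.452 over the 12 libraries, and 1.94 ± 0.34 with an adjusted p of 0.00663 over the 10. Nfkbiz (chr16:55811375-55838899, minus strand), the nuclear IκBζ that co-activates a subset of NF-κB targets, was at 30.6, 21.2 and 53.2 FPKM in ND IEL, 93.9, 0.04 and 38.4 in PA IEL, 137, 232 and 52.2 in ND LP and 276, 36.3 and 241 in PA LP. The layers overlapped, with PA IEL replicate 1 and ND IEL replicate 3 above ND LP replicate 3, and the Nfkbiz fold change was 2.47 ± 0.96 (SE) with an adjusted p of 0.265 over the 12 libraries, and 1.96 ± 0.47 with an adjusted p of 0.0309 over the 10. Tnfaip3, the gene of A20, averaged 166 FPKM and did not pass over 12 or over 10 libraries.

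Of the signalling brakes, Gem (chr4:11704457-11714752, plus strand), a small GTPase that restrains calcium channels, was at 73.9, 95.4 and 147 FPKM in ND IEL, 663, 304 and 273 in PA IEL, 255, 451 and 224 in ND LP and 964, 176 and 467 in PA LP. ND LP lay above ND IEL, whereas PA IEL and PA LP overlapped. The log2 fold change was 1.54 ± 0.61 (SE), adjusted p = 0.605 in ND and 0.18 ± 0.61 (SE), adjusted p = 0.961 in PA milk over 12 libraries. Rgs2 (chr1:143999338-144004161, minus strand), a GTPase-activating protein for Gq, was at 47.9, 24.4 and 80.1 FPKM in ND IEL, 67.4, 201 and 59.6 in PA IEL, 109, 46.7 and 75.3 in ND LP and 5.5, 12 and 68.6 in PA LP. Rgs2 was highest in PA IEL replicate 2, a library of few genes, and lowest in PA LP replicate 1, and the layers overlapped in both milk groups. Its fold change of LP over IEL in PA milk was -2.38 ± 0.96 (SE), adjusted p = 0.42 over 12 libraries and -1.60 ± 0.97 (SE), adjusted p = 0.501 over the 10. Gadd45b and Rgs1 had mean levels of 457 and 394 FPKM, and neither passed.

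Genes around this circuit were read from lists. Of all genes tested, 0.416% passed as higher and 0.464% as lower in LP over 12 libraries. Over the 10 these shares were 3.66% and 2.95%. Of 22 upstream kinases and SRF or CREB factors, none passed between the layers over 12 libraries, with a median log2 fold change of -0.31, and 2 passed as higher in LP over the 10 (Elk3, an SRF partner, and Rps6ka3, the kinase RSK2), with Rps6ka1 lower. None of 12 NF-κB subunits and kinases passed over 12 or over 10 libraries. Of 31 other early response genes tested, 1 passed over 12 libraries and 8 over the 10, all higher in LP: Klf2 passed in both, and Ppp1r15a, Socs3, Sgk1, Plk2, Irf1, Gadd45g and Ctgf over the 10. Klf2, a quiescence factor of lymphocytes and of endothelium, was at 24.6, 19.4 and 56.3 FPKM in ND IEL, 24.4, 57.1 and 34.6 in PA IEL, 309, 532 and 314 in ND LP and 452, 64.2 and 975 in PA LP. None of 11 other AP-1 partners passed.

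Heat shock genes, which are also induced during dissociation, also differed between the layers. Of 14 tested, Hspa1a, Hspa1b, Hspa8 and Hspb1 passed as higher in LP over 12 libraries, and Dnajb1 and Hspa5 passed as well over the 10. The share of all genes passing as higher was 0.416% over 12 libraries and 3.66% over the 10. Hspa1b, which encodes an inducible HSP70, was at 17.8, 12.2 and 14.1 FPKM in ND IEL, 2.91, 0.2 and 10 in PA IEL, 412, 455 and 436 in ND LP and 434, 65.6 and 635 in PA LP. It was above every IEL library in all 6 LP libraries, PA LP replicate 2 included, where most immediate early genes were low. Hspa1a was so too, at 47.8 FPKM in that library and at most 22.8 in IEL. Hspb1 and Hspa8 overlapped between the layers. Hspb1 was at 6.82 FPKM in PA LP replicate 2 and 13.98 in PA IEL replicate 1. Hspa8 was at 1940 in PA IEL replicate 2 and 1381 in ND LP replicate 3. The part of the preparation in the layer difference of the immediate early genes was not tested.

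Markers of other cells also moved with the layer. All 9 stromal and endothelial markers had a higher mean in LP, 1 passing over 12 libraries and 6 over the 10, beside 0.416% and 3.66% of all genes passing as higher. The summed level of these markers was 26.0 to 120.9 FPKM in IEL and 127.0 to 2754 in LP. Dcn, a fibroblast gene, was at 0.15 FPKM or less in every IEL library, in ND LP replicate 1 and in PA LP replicate 2, and at 97.1 to 1973 in the other 4 LP libraries.

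Most of the 17 epithelial markers went the other way over 12 libraries, and all of them did over the 10. They summed to 5689 to 95636 FPKM in IEL and 457 to 7314 in LP. As lower in LP, 7 passed over 12 libraries and 14 over the 10, beside 0.464% and 2.95% of all genes. Macrophage, dendritic cell and neutrophil markers summed to 392 to 6704 FPKM in IEL and 1181 to 13615 in LP, and none of 14 passed. The highest of these sums was that of ND LP replicate 1. Of 10 T cell markers none passed over 12 libraries, and over the 10 Cd2 was higher and Cd8b1 lower in LP. Of 6 B and plasma cell markers tested none passed, with sums of 12.3 to 18161 FPKM in IEL and 11.2 to 7739 in LP. Sums of the 19 ILC3 and sort markers were 333 to 2758 FPKM in IEL and 218 to 5738 in LP. The part of RNA from any of these cells in the layer difference was not tested.

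The milk comparison asked whether early palmitic acid exposure left a mark on these genes at 18 weeks. No member and no other gene passed limma's adjusted p of 0.05 in IEL, in LP, in their average or in the difference between layers, over 12 or over 10 libraries (0.0% of 12502 genes in each). At an unadjusted p under 0.05, Gem was the only member in IEL over 12 libraries, and it was higher in PA milk, where 0.752% of all genes were higher, 2.82% lower and 3.58% either. None of the 36 was at that p in LP, where 0.664% were higher, 4.04% lower and 4.7% either. Over 12 libraries the median log2 fold change of PA milk over ND was -0.38 in IEL and -0.83 in LP, beside -0.30 and -0.36 for all genes. Without the 2 libraries of few genes, both of PA milk, the medians were 0.51 in IEL and 0.21 in LP, beside 0.0 and -0.05 for all genes. Over the 10, 5 members had an unadjusted p under 0.05 in IEL (Gem, Junb, Nr4a1 and Cited2 higher, Ier3 lower in PA milk), where 1.84% of all genes were higher, 1.6% lower and 3.44% either. In LP 5 members were at that p (Fos, Ier3, Zfp36, Nfkbia and Gem, all higher), where 2.87% of all genes were higher, 4.18% lower and 7.05% either. The sign of the median thus turned with 1 library in each layer, and no direction is given for the whole set.

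**Figure D5:**
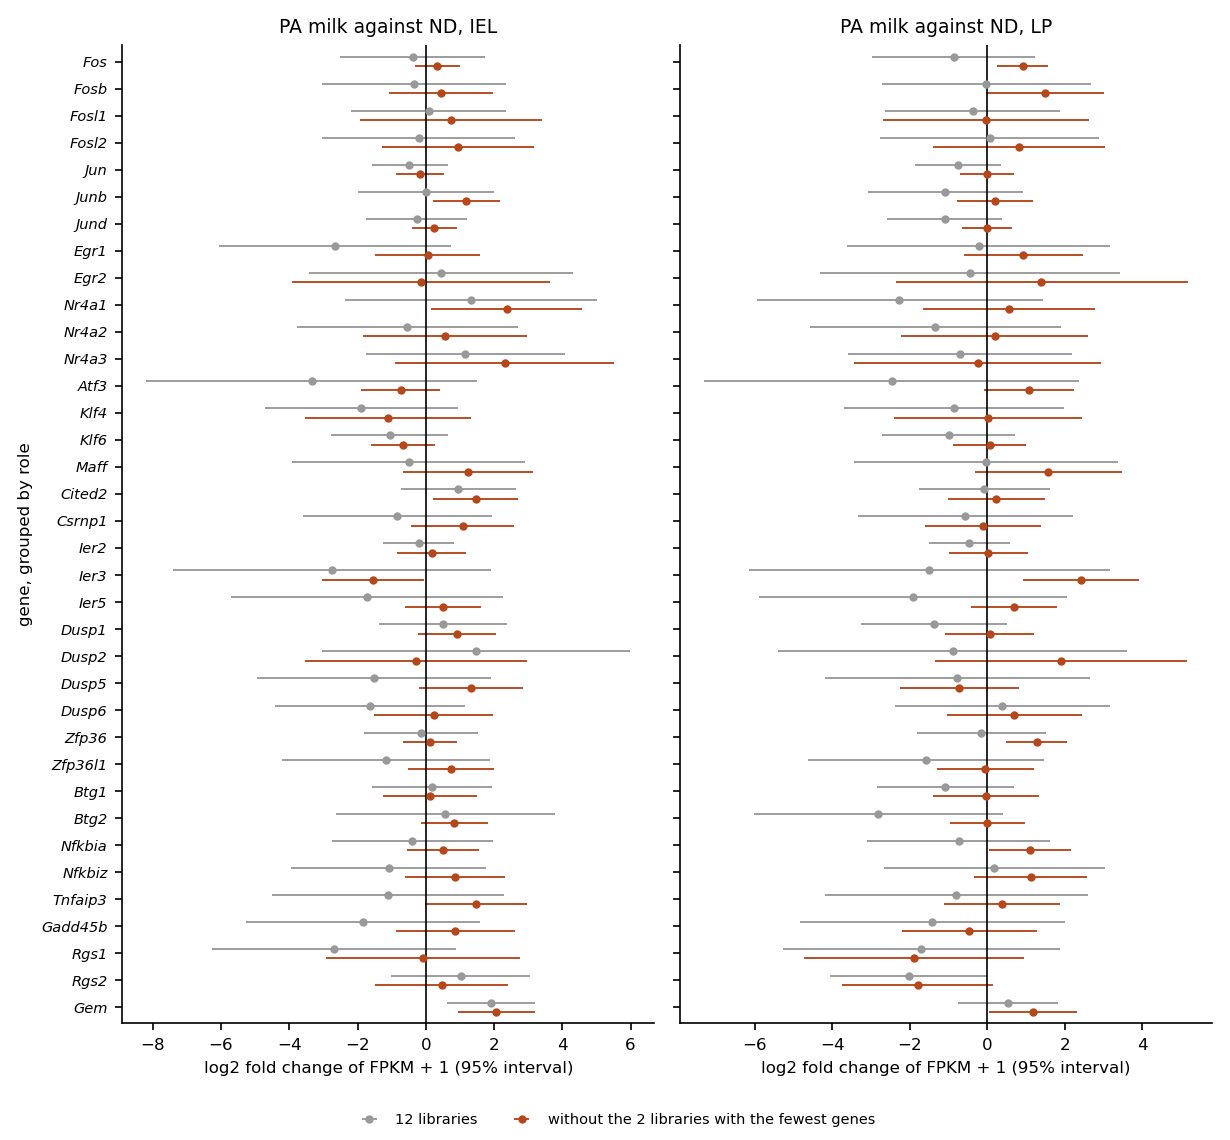
Log2 fold change of FPKM + 1 of PA milk over ND in IEL (left) and LP (right) for the 36 genes tested (point, fitted value; bar, 95% interval), from 12 libraries in grey and without the 2 libraries with the fewest genes in red. Gem is on the PA milk side of 0 in IEL in both fits, at 1.90 and 2.06, and most other intervals cross 0.

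Gem was the member with the smallest unadjusted p for milk over 12 libraries. In IEL it was at 73.9, 95.4 and 147 FPKM in ND and 663, 304 and 273 in PA milk, with every PA milk library above every ND library, the library of few genes included. The log2 fold change was 1.90 ± 0.61 (SE), adjusted p = 0.947 over 12 libraries (unadjusted p = 0.00675 from limma) and 2.06 ± 0.52 (SE), adjusted p = 1 over the 10. Gem was the 1 member with PA milk wholly above ND in IEL, which held for 2.97% of all genes. That lack of overlap fixes the exact permutation p at 0.1, the smallest for 3 against 3. In LP the groups overlapped, at 0.54 ± 0.61 (SE), adjusted p = 0.979, and the difference between the layers was -1.36 ± 0.86 (SE), adjusted p = 1. Averaged over the layers, Gem was 1.22 ± 0.43 (SE), adjusted p = 0.757.

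Klf6 and Ier3 lay wholly below ND in PA milk IEL, as 5.22% of all genes did. Klf6 was at 166, 177 and 149.8 FPKM in ND IEL and 74.9, 44.3 and 142 in PA IEL, a log2 fold change of -1.06 ± 0.81 (SE), adjusted p = 0.947. Ier3 was at 41.5, 63.4 and 34.6 and 29, 0.25 and 7.34 FPKM in the same groups, a log2 fold change of -2.76 ± 2.2 (SE), adjusted p = 0.947 over 12 libraries and -1.54 ± 0.68 (SE), adjusted p = 1 over the 10. In LP, Ier3 was at 720.3, 2086 and 406 FPKM in ND and 5166, 0.31 and 4029 in PA milk, so that 2 PA milk libraries were the highest of the 12 and the third was among the lowest. Its fold change in LP was -1.50 ± 2.2 (SE), adjusted p = 0.979 over 12 libraries and 2.43 ± 0.68 (SE), adjusted p = 0.435 over the 10, and the difference between the layers was 1.27 ± 3.11 (SE), adjusted p = 1 and 3.97 ± 0.96 (SE), adjusted p = 0.956.

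In LP no member separated by milk over 3 against 3 libraries, where 2.97% of all genes lay wholly higher and 6.6% wholly lower in PA milk. For Zfp36, Fos and Nfkbia, PA LP replicates 1 and 3 were the highest of the 12 libraries and PA LP replicate 2 the lowest. Over the 10 libraries their log2 fold changes of PA milk over ND in LP were 1.28 ± 0.36 (SE), adjusted p = 0.438 for Zfp36, 0.91 ± 0.30 (SE), adjusted p = 0.564 for Fos and 1.10 ± 0.48 (SE), adjusted p = 0.704 for Nfkbia, against -0.15, -0.87 and -0.74 over 12. Cell markers also differed by milk in LP. The 19 ILC3 and sort markers summed to 218.2 to 690.3 FPKM in PA LP and 1121.5 to 5738.3 in ND LP. The 17 epithelial markers summed to 456.8 to 2761.9 and 3855.2 to 7314.4, and the sums of the other marker lists overlapped. The part of cell content in the milk values was not tested. Rgs2 was the 1 member with an unadjusted p under 0.05 for a difference of the milk effect between the layers, at -3.05 ± 1.35 (SE), adjusted p = 1 over 12 libraries and -2.26 ± 1.25 (SE), adjusted p = 0.959 over the 10, where 2.34% of all genes over 12 libraries were at that p. Maff, a small MAF factor, was the 1 member whose 4 PA milk libraries all lay above the 6 ND libraries over the 10, as 0.36% of all genes did. That lack of overlap fixes the exact permutation p at 0.00952, the smallest that 4 against 6 can give. Maff levels there were 27.1 to 39.4 FPKM against 1.81 to 20.4. The gene was at 0 in both libraries left out, and it is named after its values were seen.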

How the data were processed

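RNA-seq libraries were made with a low-input amplification kit that does not mark strand. Per the labels and the submitters' processing notes, the authors used TopHat2 2.1.1, Bowtie2 2.2.8.0, SAMtools 0.1.18, Cufflinks 2.2.1 and Cuffdiff 2.2.1 on mm10, and deposited FPKM values per gene and library. A deposited table of scaled counts per gene was used as a signal: the authors divided the counts by a size factor and rounded them. Reads were recovered from its steps, and 90.9 to 99.0% of low values were whole within 0.05. The authors' fold changes and p-values were not used.

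Genes at 1 FPKM or more in 3 libraries (12502 genes) were fitted on log2(FPKM + 1) with limma 3.58.1 (R 4.3.3, trended variance) over all 12 libraries as 4 group means, with Benjamini-Hochberg adjustment over 12502 genes and a threshold of 0.05, so fold changes of low genes are understated. Every adjusted p and SE in the text is from limma unless another test is named. Exact permutation tests were two-sided and were run only for members whose libraries did not overlap. Each p is therefore the smallest that its group sizes allow. The fit was also run on simulated normal noise with added changes of known size. That simulation held no sparse libraries, so it cannot show how the 2 libraries with the fewest genes affect the fit. Python 3.11.15, numpy 2.4.6, pandas 2.3.3, scipy 1.17.1 and matplotlib 3.10.9 were used.

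The members and lists were chosen with earlier results of these data known. Values in every library are given for the 10 members of highest mean FPKM and members at an unadjusted limma p under 0.05 in any of 7 comparisons. They are also given for members whose milk groups do not overlap in a layer or whose layers do not overlap over 12 libraries. Fos, Jun, Egr1, Nr4a1, Atf3, Dusp1, Zfp36 and Nfkbia were added as lead genes. The IER genes and the signalling brakes had no lead gene. Genes that are no members are named from their lists by an adjusted p under 0.05 or by being among the 3 of highest mean FPKM. Alternatives were upper-quartile scaling, scaling on leukocyte genes, other filters and pseudocounts, a replicate block, fits of the groups compared only, weighted fits of recovered reads, each library left out, and the 2 libraries with the fewest genes left out. The last, combined with either scaling, was chosen after seeing the data. The result of 1 marker gene of the sorted cells is not reported here.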

Additional observations from a re-analysis of the deposited data

How the results depend on the processing

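Alternatives were counted over 24 pairs of a member and a comparison. A pair was taken for an unadjusted limma p under 0.05 over the 12 libraries, or for an adjusted p under 0.05 without the libraries of few genes. The latter fit was also counted among the alternatives, so part of the passing values follows from the choice of pairs. No pair passed over the 12 libraries, so keeping the side of the threshold means not passing. Of 528 alternative values, 474 kept the side of the threshold and the direction, 49 passed the threshold where the 12-library fit did not, and 5 turned sign.

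Genes called between LP and IEL averaged over the milk groups were 110, and became 30 without a filter (16149 genes), 38 with at least 10 scaled counts (2455 genes), 58 with a pseudocount of 0.1, 29 with the replicate block, 384 with voom, 826 without the 2 libraries with the fewest genes, and 699 and 727 when that was joined by leukocyte or upper-quartile scaling. In ND the count was 4, and was 1 with upper-quartile scaling, 0 without a filter, 1 with 10 counts, 1 with the pseudocount, 0 with the block, 92 with the compared groups only, 351 with voom, and 113, 83 and 110 without the 2 libraries (alone, with leukocyte scaling and with upper-quartile scaling). In PA milk the 18 became 8, 3 and 5 with upper-quartile scaling, no filter and 10 counts, 5 with the block, 1 with the compared groups only, 0 with voom, and 314, 219 and 238 without the 2 libraries in the same order.

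Members called were 0 throughout the 12-library fit. In ND they were 1 (Ier3) with the compared groups only, 3 with voom (Jun, Dusp1 and Jund), and 2, 1 and 1 without the 2 libraries in the same order. In PA milk they were 3, 1 and 3, and averaged over the milk groups 2 with voom and 11, 5 and 10. Milk comparisons called 0 genes, except in LP 3 with the block and 1 without the 2 libraries with upper-quartile scaling, in the difference between layers 1 with the block, and averaged over layers 1 with leukocyte scaling, 1 with 10 counts and 2 with the block.

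Leaving out each library in turn gave 0 to 65 genes called in ND, 1 to 289 in PA milk and 37 to 521 in their average, and 0 to 1, 0 to 8 and 0 to 1 for milk in IEL, in LP and averaged. PA LP replicate 2 gave the upper count in all 3 layer comparisons. Members called were 0 to 3 in PA milk and 0 to 6 averaged, both highest without PA LP replicate 2. Medians ran from 0.79 to 1.25 in ND, -0.43 to 1.98 in PA milk (lowest without PA IEL replicate 2) and 0.37 to 1.6 averaged, and for milk from -0.90 to 0.51 in IEL, -1.64 to 0.21 in LP, -0.96 to -0.04 averaged and -1.31 to 0.88 for the difference. Atf3 in PA milk ran from -0.99 to 5.17 (also -0.07 and -0.22 without PA LP replicates 1 and 3), Atf3 averaged from -0.11 to 2.97, and Fos averaged from -0.00 to 1.40. The cause was not tested.

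Across genes, the deviations of same-numbered libraries from their group means had correlations of -0.12 to 0.07 (0.06 for PA IEL and PA LP replicates 2, the 2 libraries with the fewest genes), and the labels do not state that a number marks a mouse, so the numbers were not used as pairs. Having 3 libraries a group, and 2 sparse ones, limits the precision.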
